A study of Mus musculus with 9 samples.

Results

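Transcripts of 8 genes that start, restrain or dissolve blood clots were followed in mouse lung after melanoma exosomes entered the circulation. The genes were F3, Tfpi, Thbd, Procr, Plau, Plaur, Plat and Vwf, and every probe set that the platform annotation gives to 1 of these symbols was taken, which made 11 of the 22690 probe sets and 8 of the 12394 genes on each array. Of the 11 probe sets, 10 passed the filter on dim signals, so each of the 8 genes had at least 1 tested probe set. The samples were lungs of C57BL/6 mice on 9 Affymetrix arrays, with 3 arrays in each of 3 groups: control lungs, lungs taken 24 h after exosomes carrying 10 µg of protein were given through the tail vein, and lungs taken at 48 h. The exosomes, small vesicles released by cells, were those of B16-F10 melanoma cells of the mouse, which colonize the lung. The labels used here do not give the treatment of control mice, the age of the animals or whether RNA was pooled across them before hybridization. The spread behind each p-value is that among these arrays, which the labels call biological replicates, and it may be technical in part. The comparisons ask whether lung transcripts differ from control at either time and between the times.

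Clotting begins when tissue factor, the product of F3, meets plasma factor VII outside the vessel lumen, and tissue factor pathway inhibitor, the product of Tfpi, blocks that complex on the endothelial surface. Thrombomodulin (Thbd) and the endothelial protein C receptor (Procr) turn thrombin into an activator of the anticoagulant protein C. Fibrin is dissolved by plasmin, which the tissue-type activator (Plat) and the urokinase-type activator (Plau, acting on its receptor Plaur) release from plasminogen, while von Willebrand factor (Vwf), stored in endothelial cells and platelets, tethers platelets to the injured wall. Lung is rich in capillary endothelium and is known for high thrombomodulin and tissue factor content.

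RefSeq promoter windows (GRCm38.p6, 250 bases before to 50 bases after a start site) were at hand for 4 of the 8 genes, and they are shown because the initiator F3 and the receptor gene Plaur are textbook targets of the transcription factors AP-1 and Sp1. They lie at chr3:121723287-121723586 on the plus strand for F3, chr2:84476710-84477009 on the minus strand for Tfpi, chr2:155750967-155751266 on the plus strand for Procr and chr7:24462233-24462532 on the plus strand for Plaur. Each is written 5′ to 3′, and capitals mark matches on either strand to the AP-1 core TGANTCA, which reads the same on both strands, or to the GC box GGGCGG. Overlapping matches were counted separately.
F3: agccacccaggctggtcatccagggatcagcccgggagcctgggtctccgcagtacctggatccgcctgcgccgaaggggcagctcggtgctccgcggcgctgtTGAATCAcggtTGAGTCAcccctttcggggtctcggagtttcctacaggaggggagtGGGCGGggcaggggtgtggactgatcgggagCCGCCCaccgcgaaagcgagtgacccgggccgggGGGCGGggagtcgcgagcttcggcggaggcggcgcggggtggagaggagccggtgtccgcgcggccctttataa
Tfpi: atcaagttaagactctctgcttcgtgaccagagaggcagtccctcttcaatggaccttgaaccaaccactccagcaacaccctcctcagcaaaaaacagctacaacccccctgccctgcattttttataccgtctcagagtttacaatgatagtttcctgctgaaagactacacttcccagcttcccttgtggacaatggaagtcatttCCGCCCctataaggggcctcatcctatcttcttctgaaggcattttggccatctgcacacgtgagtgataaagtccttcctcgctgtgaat
Procr: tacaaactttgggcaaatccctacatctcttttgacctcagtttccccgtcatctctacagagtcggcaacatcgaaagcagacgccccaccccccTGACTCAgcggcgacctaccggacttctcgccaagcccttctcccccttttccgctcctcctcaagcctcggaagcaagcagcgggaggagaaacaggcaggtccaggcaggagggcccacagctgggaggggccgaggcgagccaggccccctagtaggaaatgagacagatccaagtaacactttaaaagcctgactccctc
Plaur: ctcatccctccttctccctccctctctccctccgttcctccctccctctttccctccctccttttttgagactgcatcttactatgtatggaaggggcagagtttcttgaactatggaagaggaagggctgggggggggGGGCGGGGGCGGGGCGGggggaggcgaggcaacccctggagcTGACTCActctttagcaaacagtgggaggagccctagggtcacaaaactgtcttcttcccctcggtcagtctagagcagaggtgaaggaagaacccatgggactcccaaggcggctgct
The AP-1 core was found in 3 of these 4 windows, against 7.81% of 32851 promoter windows of the same length, and the F3 window held it 2 times, as TGAATCA and as TGAGTCA. The GC box was found in 3 of the 4, against 35.7% of all windows, with 3 matches in F3, 3 in Plaur and 1 in Tfpi. The Procr window held the AP-1 core and no GC box, and the Tfpi window the reverse. The motifs were chosen for F3 and Plaur, so these counts are no test against the shares of all windows. A second Tfpi window (start 84474125), not shown, held 1 GC box and no AP-1 core. A match describes letters and shows no binding.

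The arrays were of even quality, with Present calls for 69.9% to 72.6% of probe sets and median signals of 173.5 to 184.85 units. Markers of lung endothelium (12 of 12 measured and tested), alveolar type 2 cells (7 of 7) and alveolar type 1 cells (6 of 6) were detected, whereas 5 of 7 hepatocyte markers on the array (Apoa1, Ttr, Ahsg, Apoh and Tat) were detected on 0 arrays. In bulk tissue, fewer cells of a type and less RNA per cell cannot be told apart. The 3 arrays numbered replicate 1 stood apart from the other 6 on the first principal component (41.9% of the variance), whatever their group. The columns of the authors' series table carry group labels that differ from those of the sample files for matching values (all but 273 probe sets of 1 column), and directions here follow the sample files. Taken by its own labels, the table's 24 h contrast sets the control files against the 48 h files, so that 5 of the 8 genes turn their sign there (F3, Thbd, Plaur, Plat and Vwf).

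By limma, none of the 8 genes passed an adjusted p under 0.05 in any comparison, and neither did any other probe set. At 24 h, 4 of the genes were above and 4 below control, with folds between 0.937 and 1.11 and a median log2 difference of 0.007, against 0.0007 over all 15886 tested probe sets, of which 50.3% were above control. The 4 below and the median include Plau, which the filter let in through the control arrays alone. Nothing is read from the direction of Plau at 24 h. At 48 h, 5 were above and 3 below control, with folds between 0.893 and 1.20 and a median of 0.114, against -0.0025 over all, of which 49.1% were above. Between the times, 5 were higher and 3 lower at 48 h, with fitted folds between 0.934 (Procr) and 1.20 (Plau, near the detection limit) and a median of 0.016, against -0.0043 over all, of which 48.6% were higher. The shares of tested probe sets called were 0% in each of the 3 comparisons, with and without the replicate number as a block. At an unadjusted p under 0.05 the 24 h, 48 h and 48 h against 24 h comparisons held 1.16%, 1.42% and 1.78% of probe sets and 0, 0 and 0 of the 8 genes. With the replicate block these shares were 3.47%, 4.65% and 5.56%, and 0, 1 and 1 of the 8 genes were among them (Plat at 48 h against control and Plau between the times). The 3 arrays of one group lay wholly to 1 side of the 3 of the other for 0, 1 (Vwf) and 1 (Plau) of the 8 genes, against 3.88%, 4.48% and 4.58% of all. All 3 same-number pairs had 1 sign for 0, 4 and 3 genes, against 21.8%, 23.7% and 28% of all. At 24 h the separate 95% intervals of the fold of the 8 genes, each by its brightest tested probe set, ran from 0.714 to 1.50. They ran from 0.736 to 1.74 at 48 h and from 0.706 to 1.68 between the times. Each interval bounds the change of 1 gene at that level, and they are no joint bound for the 8. The Tfpi probe set 1451790_a_at reached lower between the times, to 0.692. With the block the outer bounds by the brightest probe sets were 0.80 and 1.36, 0.747 and 1.41, and 0.717 and 1.40. Those of 1451790_a_at reached 1.43 at 24 h and 0.687 between the times.

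**Figure D1:**
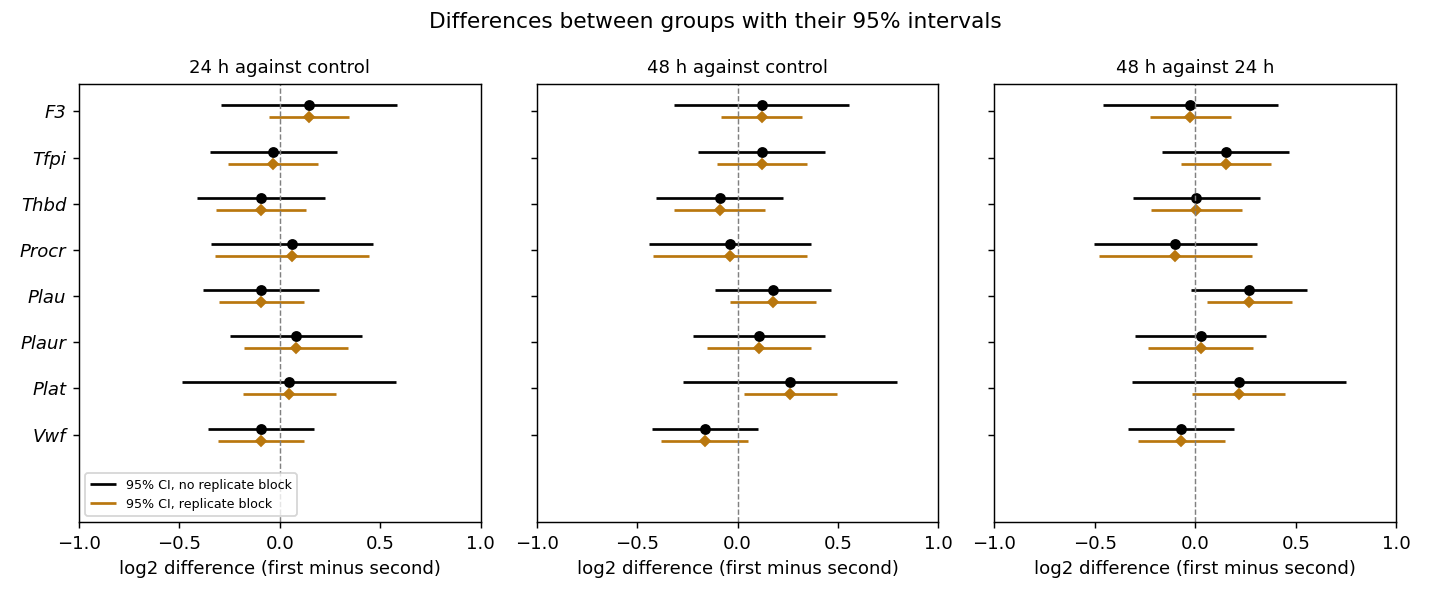
Differences of the 8 genes in normalized log2 signal (x axis) for the 3 comparisons, with limma's 95% intervals without (black) and with (orange) the replicate number as a block. Every black interval includes 0, and the orange ones leave it out for Plat at 48 h against control and Plau at 48 h against 24 h.

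F3 encodes tissue factor, the membrane protein that triggers clotting (chromosome 3, 121723537 to 121735052). Its signal in replicates 1, 2 and 3 was 611.3, 489.9 and 695.9 units in control lungs, 604.9, 571.3 and 797.2 at 24 h, and 613.8, 525.7 and 808.9 at 48 h. Replicate 3 was the highest and replicate 2 the lowest in every group, and the groups overlapped. The normalized log2 signal was 9.24 ± 0.24 in control, 9.39 ± 0.25 at 24 h and 9.36 ± 0.31 at 48 h (SD, n = 3). The fold against control was 1.11 at 24 h (95% CI 0.817 to 1.50, adjusted p = 1.00) and 1.09 at 48 h (0.803 to 1.47), and 48 h stood at 0.983 of 24 h. Within same-number pairs, the log2 difference from control at 48 h was 0.02, 0.10 and 0.23, above 0 in 3 of 3 pairs, as for 11.5% of all tested probe sets. At 24 h the pairs gave -0.01, 0.23 and 0.21. With the block the standard error of the F3 difference was 0.087 in place of 0.195, and the interval at 24 h was 0.962 to 1.27.

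Tfpi encodes the inhibitor of the tissue factor and factor VIIa complex (chromosome 2, 84432855 to 84476775). Its brightest probe set, 1451791_at, read 324.8, 224.5 and 252.3 units in control replicates 1, 2 and 3, 276.2, 253.4 and 230.2 at 24 h, and 308.6, 266.5 and 271.5 at 48 h. The control arrays spanned the widest range and enclosed all 24 h and 48 h values. The log2 signal was 8.11 ± 0.24, 8.08 ± 0.12 and 8.23 ± 0.11 in control, 24 h and 48 h lungs. The fold was 0.978 at 24 h (95% CI 0.786 to 1.22) and 1.09 at 48 h (0.873 to 1.35), and 1.11 at 48 h against 24 h (0.893 to 1.38). Between the times, all 3 pairs were higher at 48 h, by 0.18, 0.06 and 0.22, as for 13% of all tested probe sets.

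The other two Tfpi probe sets differed in how far they followed it: 1452432_at had the same sign in each of the 3 comparisons, and 1451790_a_at the opposite sign. The difference between probe sets was not tested. 1451790_a_at, an identifier that marks probes shared by transcript variants, read 198.1, 279.1 and 233.5 units in control, 283.2, 231.2 and 267.4 at 24 h, and 225.9, 191.2 and 263.2 at 48 h. Its log2 difference between 48 h and 24 h was -0.18, against 0.15 for 1451791_at and 0.06 for 1452432_at, and it was below 0 in 3 of 3 pairs (background 14.9%). Control replicate 1 was the highest control array on 1451791_at and the lowest on 1451790_a_at. 1452432_at was tight in control (194.9, 202.5 and 210.0 units) and at 24 h (195.7, 191.3 and 199.8), and wider at 48 h (168.2, 199.0 and 248.0). Each of the 9 differences on the 3 probe sets had an interval that included no change.

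**Figure D2:**
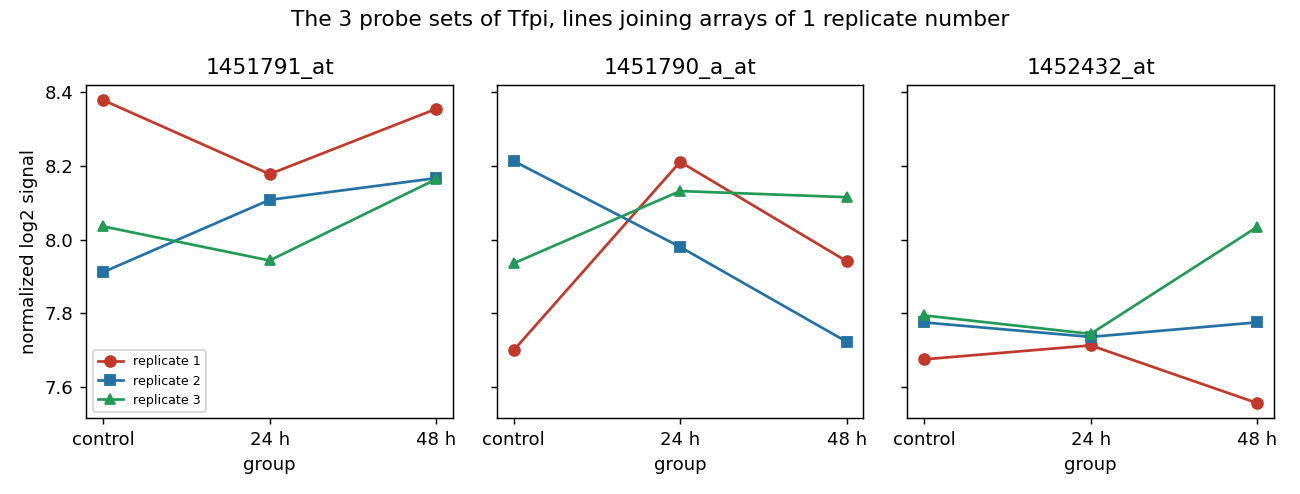
Normalized log2 signal (y axis) of the 3 Tfpi probe sets by group (x axis), with lines joining arrays of the same replicate number. The order of the numbers differs between panels, and control replicate 1 is the highest control point in the left panel and the lowest in the middle one.

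Thbd encodes thrombomodulin, the endothelial thrombin receptor that switches thrombin to protein C activation (chromosome 2, 148404471 to 148408188). It was among the brighter probe sets, with a mean at the 98.4th percentile of the array. Its signal in replicates 1, 2 and 3 was 5872.6, 5933.6 and 5331.4 units in control, 5587.3, 5311.8 and 5590.0 at 24 h, and 6336.3, 4901.8 and 5140.1 at 48 h. The 48 h arrays held both the highest and the lowest of the 9 values. The log2 signal was 12.51 ± 0.13 in control, 12.42 ± 0.12 at 24 h and 12.42 ± 0.23 at 48 h. The folds of 0.937 at 24 h (95% CI 0.752 to 1.17) and 0.94 at 48 h (0.755 to 1.17) were below the spread between arrays. The 2 times did not order: 48 h stood at 1.00 of 24 h (0.806 to 1.25), and this log2 difference of 0.006 was -0.018 without quantile normalization.

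Procr, the receptor that presents protein C to thrombomodulin-bound thrombin (chromosome 2, 155751125 to 155755478), was measured by 1 probe set whose name marks probes that may match related transcripts. It read 109.1, 83.8 and 93.0 units in control, 101.9, 129.6 and 72.2 at 24 h, and 85.3, 87.6 and 95.9 at 48 h. The 24 h arrays spread most, with replicate 2 the highest and replicate 3 the lowest of all 9. The log2 signal was 6.78 ± 0.13, 6.84 ± 0.40 and 6.74 ± 0.03 in the 3 groups. The fold was 1.04 at 24 h (95% CI 0.788 to 1.38) and 0.974 at 48 h (0.736 to 1.29). Without 24 h replicate 2 the log2 difference at 24 h was -0.13 in place of 0.06.

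**Figure D3:**
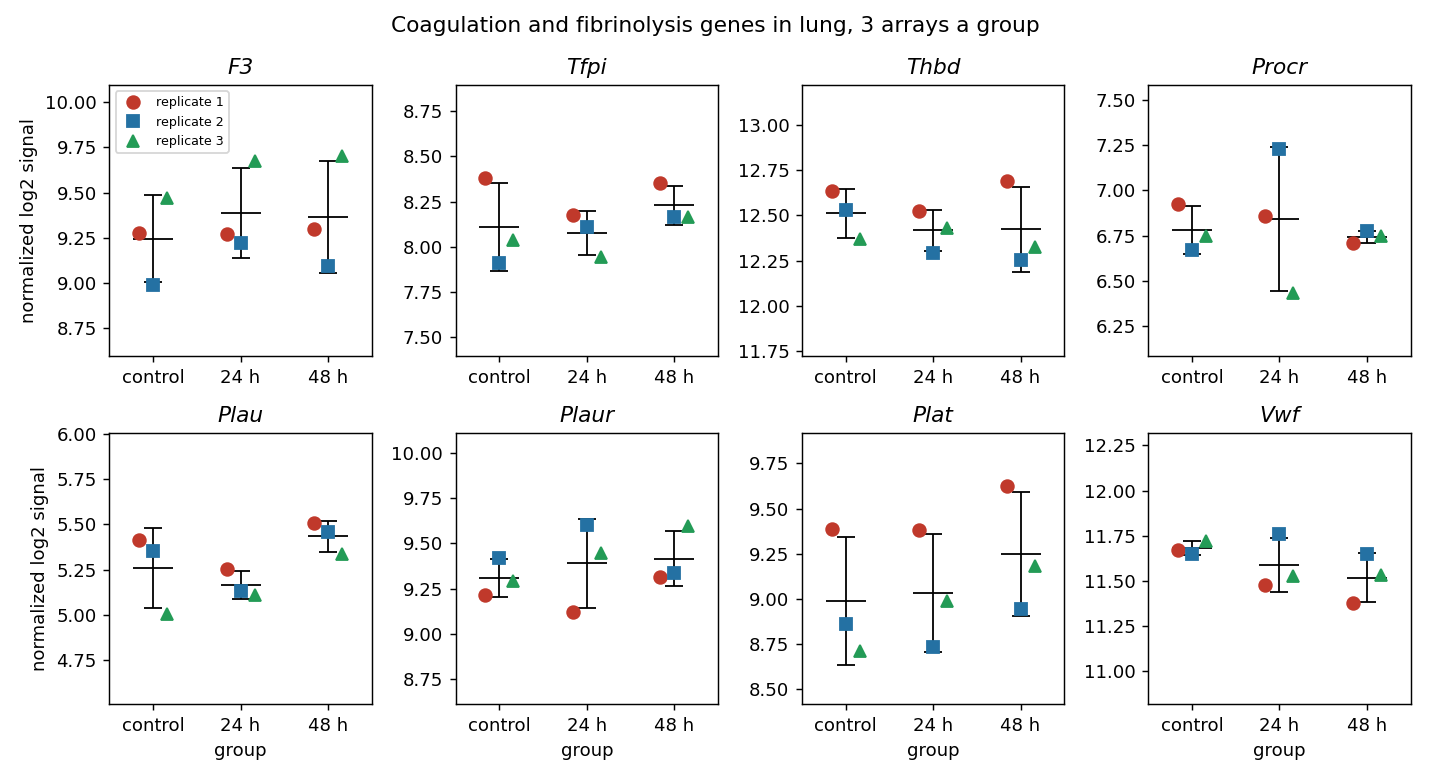
Normalized log2 signal (y axis, 1.5 log2 units in every panel) of the 8 genes by group (x axis), with a point for each array shaped and coloured by replicate number and a bar for the mean ± SD of 3 arrays. Replicate 3 is the highest point of every group for F3 and replicate 1 for Plat, and among the 8 genes only Vwf at 48 h lies wholly below control.

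Plat encodes tissue-type plasminogen activator, the main intravascular starter of fibrinolysis (chromosome 8, 22757722 to 22782848). It read 658.4, 450.4 and 408.2 units in control replicates 1, 2 and 3, 655.8, 401.6 and 491.8 at 24 h, and 769.7, 470.3 and 560.8 at 48 h. Replicate 1 was the highest array of each group, and the groups overlapped. The log2 signal was 8.99 ± 0.35 in control, 9.03 ± 0.33 at 24 h and 9.25 ± 0.34 at 48 h. The fold at 48 h was 1.20 (95% CI 0.83 to 1.74, adjusted p = 1.00), and with the replicate block it was 1.02 to 1.41 (unadjusted p = 0.0316, adjusted p = 0.998), which did not pass. The 48 h array was above its control in 3 of 3 pairs, by 0.24, 0.08 and 0.47 on the log2 scale (background 11.5%). It was also above the 24 h array in 3 of 3 pairs, by 0.24, 0.21 and 0.19 (background 13%), with a fold of 1.16 (0.803 to 1.68). At 24 h the fold was 1.03 (0.714 to 1.49) and the pairs differed in sign. Summed smooth muscle marker signals (6 of 6 genes measured) were 7259 to 10074 units in control, 6874 to 10227 at 24 h and 8255 to 11161 at 48 h. All 6 were higher at 48 h than at 24 h, against 48.6% of all tested probe sets. Against control, 4 of the 6 were higher at 48 h and 1 at 24 h. All 7 tested neutrophil markers also had a higher mean at 48 h than at 24 h. Their summed signal was 29677 units on 48 h replicate 1 and at most 15388 on arrays numbered 2 or 3 of any group. In replicates 1, 2 and 3, S100a9 read 9676, 2297 and 2228.5 units at 48 h and 4492.8, 2807 and 3400.9 at 24 h. Ltf differed, with its highest 48 h value on replicate 3 (894.4 units). Of the tested endothelial markers 5 of 12 were higher at 48 h than at 24 h, and of the platelet markers 2 of 8. Cardiac markers were higher in 4 of 8, alveolar type 2 in 2 of 7 and alveolar type 1 in 2 of 6. Alveolar macrophage markers were higher in 3 of 6, and monocyte and macrophage markers in 5 of 7. Mesothelial (0 of 3), adipocyte (0 of 5) and hepatocyte (0 of 1) markers were not. The part of any of these sets in the Plat values was not tested.

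Plau encodes urokinase, the plasminogen activator of the cell surface (chromosome 14, 20836662 to 20843388). Its tested probe set, 1422139_at, lay near the detection limit, at 27.2, 24.3 and 17.0 units in control, 22.6, 18.1 and 19.9 at 24 h and 28.2, 25.2 and 27.4 at 48 h. It had a detection p under 0.05 on 3 of 3 control arrays (0.0376 to 0.0461), on 0 of 3 at 24 h (0.0562 to 0.466) and on 1 of 3 at 48 h. It entered the test through the control group alone. All 48 h values were above all 24 h values, as for 2.45% of tested probe sets. Since 2 of the 3 arrays at 48 h and all 3 at 24 h were below the detection limit, no fold is drawn from this. The fitted log2 means were 5.43 at 48 h and 5.17 at 24 h (adjusted p = 1.00, and 0.82 with the block). Their log2 difference of 0.27 became 0.44 with an offset of 1 and 0.12 with an offset of 64 in place of 16. The control mean was 5.26, and nothing is read from its place above 24 h, since the filter let the probe set in through the control arrays. The other Plau probe set, 1422138_at, was detected on 2 of 9 arrays (2.0 to 24.2 units) and was not tested.

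Plaur encodes the urokinase receptor, which leukocytes and activated endothelium display (chromosome 7, 24460937 to 24475970). It read 589.6, 670.8 and 619.4 units in control, 546.3, 755.8 and 680.2 at 24 h, and 623.0, 626.8 and 753.5 at 48 h. The lowest and the highest of the 9 values were both at 24 h. The log2 signal was 9.31 ± 0.10, 9.39 ± 0.25 and 9.42 ± 0.15 in the 3 groups. Folds were 1.06 at 24 h (95% CI 0.843 to 1.33) and 1.08 at 48 h (0.859 to 1.35), within the spread between arrays. Neutrophil markers (7 of 7 measured genes detected) summed to 11030 to 15388 units in control, 8159 to 13317 at 24 h and 7343 to 29677 at 48 h, and whether they moved with Plaur was not tested.

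Vwf encodes the platelet-tethering glycoprotein of endothelial storage granules (chromosome 6, 125552948 to 125686679). It read 3176.2, 3205.1 and 3321.9 units in control, 2799.3, 3496.7 and 2969.2 at 24 h, and 2649.6, 3225.4 and 2919.1 at 48 h. The control arrays lay close together, and after normalization all 3 of the 48 h arrays were below all 3 control arrays, as for 2.12% of tested probe sets. In deposited units 48 h replicate 2 was above control replicates 1 and 2, so the groups overlapped before quantile normalization. The log2 signal was 11.68 ± 0.04 in control, 11.59 ± 0.15 at 24 h and 11.52 ± 0.14 at 48 h. The fold at 48 h was 0.893 (95% CI 0.744 to 1.07, adjusted p = 1.00, and 0.998 with the block), which did not pass. The pairs differed by -0.29, -0.002 and -0.19, so that replicate 2 showed almost no difference. At 24 h the fold was 0.937 (0.78 to 1.13), with pairs of -0.20, 0.11 and -0.19.

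Markers of the cells that make von Willebrand factor overlapped between the groups. The summed signal of 12 endothelial markers was 36735 to 40565 units in control, 35154 to 40106 at 24 h and 35736 to 40660 at 48 h. That of 8 platelet markers was 2923 to 5305, 3785 to 6925 and 2509 to 7752 units. Their part in the Vwf values was not tested.

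By the brightest tested probe set of each gene, more of the sum of squares lay between replicate numbers than between groups for every gene but Plau. The Tfpi probe set 1451790_a_at went the other way, with 6.92% between numbers and 19.8% between groups. A limma F-test of the number, with the group as a term, passed for 2 of the 8 genes (25%), F3 (adjusted p = 0.021) and Plat (adjusted p = 0.017), against 16.6% of all tested probe sets. The same genes were those with an unadjusted p under 0.05, against 38% of all. F3 averaged 9.28 ± 0.01 over the 3 arrays numbered 1, 9.10 ± 0.12 over those numbered 2 and 9.61 ± 0.13 over those numbered 3. Plat averaged 9.46 ± 0.14, 8.85 ± 0.11 and 8.96 ± 0.24, so number 1 stood at 1.47 times the mean of the other numbers, with no overlap. Replicate numbers held 87.1% of the sum of squares of F3 and 78.9% of that of Plat, and groups 7.69% and 14.4%. The medians over the 8 genes were 55.8% for numbers and 11.7% for groups, against 51.5% and 11.7% over all tested probe sets. Plau was the member with the largest share between groups, 47.3%, followed by Vwf with 32.0%. The Plau signals lay near the detection limit and entered the test through the control group alone, so nothing is read from the Plau share.

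The other members did not pass this test, with adjusted p between 0.135 (Tfpi and Thbd) and 0.461 (Procr). Tfpi (1451791_at) was higher on every array numbered 1 than on the other 6, at 1.19 times their mean, as for 10.7% of tested probe sets. Its probe set 1452432_at ran the other way, lower on every array numbered 1 at 0.894 times the mean of the rest, and 1451790_a_at overlapped. By the brightest probe set of each gene, number 1 did not overlap the rest for 2 of 8 genes, Tfpi and Plat, against 23.3% in either direction, and for Tfpi this rests on 1451791_at alone. Both calls depended on single arrays. The F3 call ended without 24 h replicate 1 (adjusted p = 0.0563), 24 h replicate 3 (0.0658), 48 h replicate 1 (0.0504), 48 h replicate 2 (0.0693), 48 h replicate 3 (0.0617) or control replicate 1 (0.0532). It also ended when dim probe sets were kept (0.0514). The Plat call ended without 24 h replicate 1 (adjusted p = 0.0663), 48 h replicate 1 (0.061), 48 h replicate 2 (0.0508) or control replicate 1 (0.0806). Without the 3 arrays numbered 1, an alternative added after seeing the data, the adjusted p was 0.202 for F3 and 0.643 for Plat.

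Some marker sums also differed between the arrays numbered 1 and the others. Smooth muscle markers summed to 10074 to 11161 units on arrays numbered 1 and 6874 to 9910 on the others, alveolar type 1 markers to 33391 to 34886 and 36473 to 40141, and alveolar type 2 markers to 55170 to 57028 and 59743 to 62656. Endothelial markers overlapped, at 36574 to 38039 and 35154 to 40660 units. Platelet markers passed the number test in 7 of 8 genes, mesothelial markers in 3 of 3, smooth muscle markers in 5 of 6, cardiac markers in 4 of 8, monocyte and macrophage markers in 3 of 7, alveolar macrophage markers in 2 of 6 and endothelial markers in 3 of 12, against 16.6% of all tested probe sets. No marker passed among the alveolar type 1 (0 of 6), alveolar type 2 (0 of 7), neutrophil (0 of 7), adipocyte (0 of 5 tested) and hepatocyte (0 of 1 tested) genes. Their part in the F3 and Plat values was not tested. The labels call the numbers biological replicates of an experiment done in triplicate. They do not say what arrays of the same number share.

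**Figure D4:**
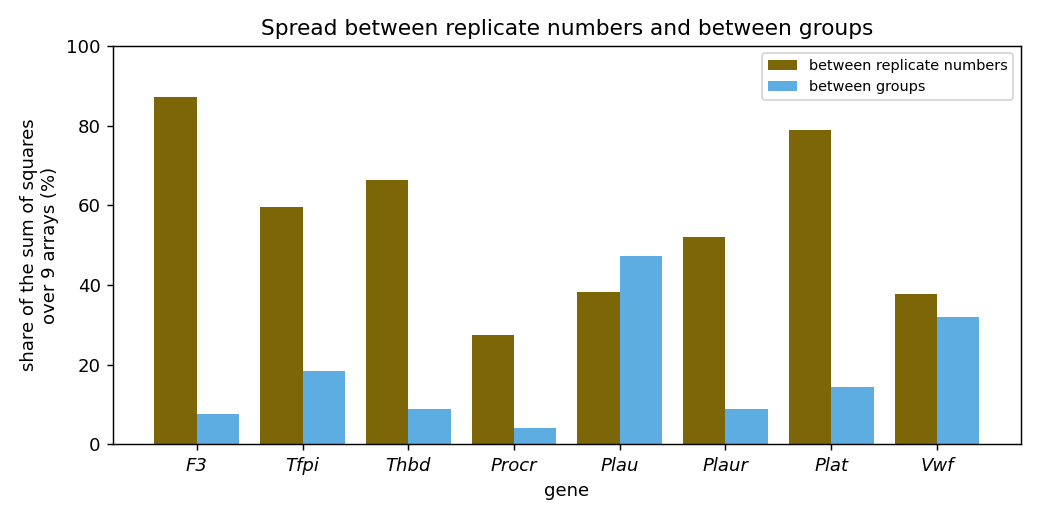
Share of each gene's sum of squares over the 9 arrays (y axis, percent) that lay between replicate numbers (brown) and between groups (blue). Each gene is shown by its brightest tested probe set. Numbers held more than groups, from 27.3% for Procr to 87.1% for F3, for every gene but Plau, which lay near the detection limit.

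Other genes of the pathway were read from 5 lists of 55 genes, of which 49 had a probe set and 27 were tested. None of the 27 passed in any comparison. At 24 h, 16 were above and 11 below control (median log2 0.03, against 0.0007 over all tested probe sets), at 48 h 21 were above and 6 below (0.044, against -0.0025), and 15 were higher and 12 lower at 48 h than at 24 h (0.011, against -0.0043). Of the 22 genes measured but not tested, 15 were detected on 0 arrays. They included the genes of liver-made plasma factors F2 (prothrombin), F9, F11, F12, the fibrinogen chains Fga, Fgb and Fgg, antithrombin (Serpinc1) and plasminogen (Plg).

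Thbs1, the matrix glycoprotein thrombospondin, which platelet granules also hold, was the wider gene with an unadjusted p under 0.05. It stood at 1.47-fold control at 48 h (95% CI 1.13 to 1.90, adjusted p = 1.00) and at 1.56-fold the 24 h level (1.21 to 2.02, adjusted p = 1.00), and at 0.939-fold control at 24 h. With the block the adjusted p was 0.998 and 0.779. The transglutaminase subunit gene F13a1, which cross-links fibrin, stood at 1.27-fold control at 48 h (0.763 to 2.10) and F5, the cofactor of prothrombin activation, at 1.22-fold (0.711 to 2.09). The lowest at 48 h were the protease-activated receptor gene F2rl2 at 0.878-fold (0.693 to 1.11), F7, the plasma partner of tissue factor, at 0.937-fold and Entpd1, which removes platelet-activating nucleotides, at 0.966-fold.

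At 24 h the highest of the list were the platelet glycoprotein gene Gp9 at 1.23-fold (95% CI 0.466 to 3.25), F5 at 1.17-fold and Lman1, which carries factors V and VIII out of the endoplasmic reticulum, at 1.14-fold (0.958 to 1.35). The lowest were S100a10, a plasminogen-binding partner of annexin A2, at 0.812-fold (0.593 to 1.11), F2rl2 at 0.852-fold and Proz, the gene of protein Z, at 0.869-fold. Between the times, S100a10 stood at 1.27-fold at 48 h (0.927 to 1.74) and F13a1 at 1.25-fold (0.75 to 2.07), next below Thbs1. F7 (0.90-fold), Vtn (0.954-fold), which steadies the inhibitor of plasminogen activators, and Gp9 (0.958-fold) were lowest. Between replicate numbers 6 of the 27 passed (22.2%, background 16.6%): Tfpi2, Lrp1, Plgrkt, Gp1bb, Gp9 and Itga2b.

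Likeness of pattern was described by Pearson r over the 9 arrays with 9273 other tested genes, where the standing apart of replicate 1 enters every value. Most like F3 were Rad54l2 (r = 0.973), Gtf2b (0.957) and Tm9sf3 (0.952). Most like Plat were Rhoj (0.987), Aspn (0.98) and Tmem33 (0.974), and most like Thbd were Hdgfl3 (0.986), Gpn3 (0.969) and Phip (0.961). Tfpi was nearest to Apob (0.948), Plau to Ibtk (0.946), Plaur to Rhbdd3 (0.944), Procr to Zfp35 (0.94) and Vwf to Sigirr (0.932). Among the members themselves the highest r was between Tfpi and Plat (0.767) and the lowest between Plat and Vwf (-0.796).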

How the data were processed

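Lung RNA from 9 samples was measured on single-colour Affymetrix arrays. Per the file headers, each deposited file holds, for 22690 probe sets, a linear signal intensity with its call and its detection p-value, and the values show that the authors scaled each array to a trimmed mean near 500.1 units. The labels name no background or summary step. After removal of 64 control probe sets, 16 was added to each signal before log2 and quantile normalization. Fold changes are on this offset scale and understate changes of dim genes. The number of arrays limits the precision.

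Tests were run on the 15886 probe sets with a detection p under 0.05 throughout 1 or more groups, and each gene is represented by the brightest of them. The model was limma's (version 3.58.1, R 4.3.3; lmFit, eBayes, two-sided tests, 9 arrays with 1 mean per group, Benjamini-Hochberg adjusted p under 0.05). The fit was tested on simulated data with noise drawn independently for each array. That simulation does not cover the likeness of same-number arrays given below. Wider genes named are the 3 highest and 3 lowest in each comparison and those with an unadjusted p under 0.05. The members and lists were chosen with earlier results of these data known.

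Replicate numbers come from the labels. For the 9 same-number pairs of arrays, the r of their deviations from group means was 0.275 to 0.651. It was -0.561 to 0.308 for the 18 other pairs. Same-number arrays were therefore also compared as pairs. The labels state no paired test, so the main fit has no replicate block, and the block was an alternative. Intervals and adjusted p of group differences given without mention of the block come from the fit without it. The median standard error over all tested probe sets was 0.153 without the block and 0.107 with it. Names inside all 9 files matched their groups, while the authors' table of processed intensities carries the values under other labels (8 columns matched a file within 0.051 units throughout, and 1 differed at 273 probe sets). It served as an alternative. Its columns labelled 24 h, 48 h and control hold the control, 24 h and 48 h files, with control replicates 1 and 2 exchanged. Its column medians were 173.5 to 184.85 units on a linear scale without centring. Promoter sequences and gene positions are RefSeq's for GRCm38.p6, and no genome was used.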

Additional observations from a re-analysis of the deposited data

How the results depend on the processing

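By limma, the number of probe sets and of the 8 genes past an adjusted p under 0.05 stayed at 0 in each of the 3 comparisons under all 20 alternatives, the replicate block among them, against 185, 225 and 282 probe sets at an unadjusted p under 0.05. The lowest adjusted p of a gene was 0.82. Of 501 repeats of the 24 differences, 458 kept their sign and 43 turned it, and 3 differences never turned. These counts include the series table with its own labels, whose groups hold other files, so its differences are not repeats of the same contrasts. Only there did F3, Thbd and Vwf turn at 24 h, and Tfpi and Plau between the times. The same holds for Tfpi, Plau, Plaur, Plat and Vwf at 48 h against control. The replicate block changed no call. In this balanced design it alters the standard error and not the difference, so no sign could turn. The difference was also fixed with a trended prior, with dim probe sets kept and with detection required on every array. It was fixed too in fits of only the groups compared, and in probe set means of genes with a single tested probe set. Kept signs in these repeats show no stability.

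Some log2 differences turned sign. Thbd at 48 h against 24 h was -0.018 without quantile normalization and -0.00695 with median scaling, and Tfpi at 24 h was 0.036 as the mean of its probe sets. Without the arrays numbered 1, Tfpi at 24 h was 0.052, Procr at 48 h 0.054, and Thbd and Plaur at 48 h against 24 h were -0.072 and -0.059. In the series table with its own labels, whose groups hold other files, differences at 24 h were -0.12 (F3), 0.089 (Thbd), -0.11 (Plaur), -0.26 (Plat) and 0.16 (Vwf). At 48 h they were -0.15 (Tfpi), 0.098 (Procr), -0.27 (Plau), -0.027 (Plaur), -0.22 (Plat) and 0.069 (Vwf). Between the times they were 0.14 (F3), -0.032 (Tfpi), -0.094 (Thbd), 0.0605 (Procr) and -0.092 (Plau).

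With 1 array left out in turn, differences at 24 h ranged from -0.13 to 0.10 (Tfpi), -0.13 to 0.26 (Procr), -0.025 to 0.22 (Plaur) and -0.13 to 0.25 (Plat). At 48 h they ranged from -0.049 to 0.25 (F3) and -0.092 to 0.036 (Procr). Between the times they ranged from -0.19 to 0.12 (F3), -0.13 to 0.088 (Thbd), -0.30 to 0.097 (Procr), -0.11 to 0.13 (Plaur) and -0.13 to 0.017 (Vwf).

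The number test called 2639 probe sets and 2 of the 8 genes. It called 905 and 1 with dim probe sets kept, and 0 and 0 in the series table (1015 and 1 at an unadjusted p under 0.05). It called 0 and 0 without the arrays numbered 1 (2512 and 1 unadjusted), an alternative chosen after seeing the data. With 1 array left out it called 401 to 2626 probe sets and 0 to 2 genes, and the count moved by over 1.5 times without any 24 h or 48 h array (532 to 1664) or control replicate 1 (401). With a trended prior, Thbd passed too (adjusted p = 0.0437). Fewer arrays enter the fits that leave arrays out. All 9 arrays enter the fit of the series table, but control replicates 1 and 2 are exchanged there, so its number test pairs other arrays. Beyond this, causes were not tested. Dim signals limit Plau, which lay at the detection limit.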
